A study of Homo sapiens with 5 samples.

Results

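The interleukin-6 family and its signalling were examined as 10 genes: the secreted ligands IL6, LIF, IL11, CSF3 and CSF2, the receptor chains IL6ST, LIFR and OSMR, the transcription factor STAT3 and its feedback inhibitor SOCS3. They were matched by symbol, and 10 of 10 were found, each under 1 identifier, among 57905 genes with counts. The 5 libraries were total RNA of SVG-10B1, an established human astroglial line grown in medium with 10% fetal calf serum: 2 of the wild-type line, which the labels number clone 1, 1 of clone 2 and 2 of clone 6. Clones 2 and 6 carry the R132H substitution of isocitrate dehydrogenase 1 on 1 allele (IDH1 R132H/WT). Each edited line is a clone, no source used here says how it was made, and the labels do not say whether replicates came from separate cultures, so p-values measure only the spread between these samples.

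IL6, LIF and IL11 are cytokines that signal through gp130, the shared receptor chain encoded by IL6ST. IL6 and IL11 use their own binding chains with a gp130 dimer, whereas LIF needs LIFR and oncostatin M needs OSMR or LIFR beside gp130. Receptor-bound JAK kinases phosphorylate STAT3, which enters the nucleus and induces SOCS3, and SOCS3 in turn blocks the gp130 complex. CSF3 (G-CSF) and CSF2 (GM-CSF) drive the growth of granulocytes and macrophages through receptors of their own. Astrocytes are known to make IL6, LIF and colony-stimulating factors in response to interleukin-1 and tumour necrosis factor, by way of NF-kB and C/EBP factors at the promoters.

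Across the 3 edited libraries, 6 of the 10 genes were lower than in wild type and 0 were higher (edgeR quasi-likelihood test, Benjamini-Hochberg adjusted p under 0.05), where 9.49% of all genes tested were lower and 7.64% higher. CSF3 and CSF2 were near 0 in all edited libraries, and IL11, LIF, LIFR and OSMR were 2.42-fold to 3.32-fold lower. IL6 was 10.4-fold lower in clone 2 and in clone 6 replicate 1, but was above both wild-type values in clone 6 replicate 2. STAT3 and SOCS3 transcripts did not pass the test between the genotypes.

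Promoters of IL6, of genes with a like profile and of a pair of other ligands are shown first, so that the motifs in them can be set beside the values. RefSeq windows of 250 bases before the start (GRCh38.p14) were found for 8 of the 10 genes, with no entry for LIF and CSF3. Both strands were searched for STAT (TTCNNNGAA), C/EBP (TTGCNNAAT), CRE (TGACGTCA), AP-1, TATA box and NF-kB motifs, and capitals mark the matches. IL6 (chr7:22726950-22727199, plus strand) is shown with the promoters of PTX3 (chr3:157436600-157436849, plus strand) and CXCL2 (chr4:74099196-74099445, minus strand), which were 2 of the 3 genes closest to it in level across the libraries, and with IL11 (chr19:55370464-55370713, minus strand) and CSF2 (chr5:132073539-132073788, plus strand) as ligands that were low in every edited library. They were chosen with the motif matches known.
IL6: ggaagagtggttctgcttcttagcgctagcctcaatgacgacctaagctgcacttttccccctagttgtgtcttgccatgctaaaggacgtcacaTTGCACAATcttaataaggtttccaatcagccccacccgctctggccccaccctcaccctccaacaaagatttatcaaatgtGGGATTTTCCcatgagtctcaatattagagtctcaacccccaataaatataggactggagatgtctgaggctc
PTX3: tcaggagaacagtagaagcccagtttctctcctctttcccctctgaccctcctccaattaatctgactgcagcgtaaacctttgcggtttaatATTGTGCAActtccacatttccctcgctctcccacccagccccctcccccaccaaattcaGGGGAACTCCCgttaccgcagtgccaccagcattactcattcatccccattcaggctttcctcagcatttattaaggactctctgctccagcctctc
CXCL2: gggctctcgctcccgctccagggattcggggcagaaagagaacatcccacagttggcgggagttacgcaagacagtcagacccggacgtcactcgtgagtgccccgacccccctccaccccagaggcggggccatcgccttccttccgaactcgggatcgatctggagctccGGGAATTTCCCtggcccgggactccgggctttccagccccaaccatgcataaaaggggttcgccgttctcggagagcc
IL11: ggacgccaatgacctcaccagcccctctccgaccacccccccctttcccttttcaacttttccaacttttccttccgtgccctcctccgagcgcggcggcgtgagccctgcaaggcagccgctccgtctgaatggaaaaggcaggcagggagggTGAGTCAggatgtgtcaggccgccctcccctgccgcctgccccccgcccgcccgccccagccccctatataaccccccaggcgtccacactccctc
CSF2: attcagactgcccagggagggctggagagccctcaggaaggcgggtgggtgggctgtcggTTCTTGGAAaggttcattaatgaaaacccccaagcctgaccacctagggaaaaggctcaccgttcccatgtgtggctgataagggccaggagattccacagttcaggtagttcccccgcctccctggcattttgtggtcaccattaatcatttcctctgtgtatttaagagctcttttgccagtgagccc

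The IL6 window held a C/EBP match 155 to 147 bases before the start and an NF-kB match 73 to 64 bases before it. PTX3 held a C/EBP match, 157 to 149 bases before the start on the other strand, and overlapping NF-kB matches at 97 to 88 and 96 to 87 bases. CXCL2 held overlapping NF-kB matches on both strands at 78 to 69 and 77 to 68 bases and no C/EBP match. IL1A, the other gene close to IL6, held AP-1 matches and neither of these motifs. The IL11 window held an AP-1 match (TGANTCA) 96 to 90 bases before the start, and that of CSF2 a STAT match 190 to 182 bases before it. Of all 34943 windows, 9.95% held the NF-kB motif, 2.4% the C/EBP, 6.59% the AP-1, 6.56% the STAT, 10.8% the TATA box (searched as TATAAA) and 1.63% the CRE motif. Such a match is a run of letters and not a measured binding site. Of the other promoters, IL6ST held 1 NF-kB match, and OSMR, STAT3 and both of the 2 SOCS3 windows held none of the motifs. LIFR has 3 starts, of which 2 held a STAT match and 1 of these also C/EBP and TATA box matches. Bases outside these windows were not searched.

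The libraries held 13572114 to 21881726 reads, and levels are given as CPM, the reads of a gene per 1000000 reads of a TMM-scaled library, on which 3 reads were 0.1385 to 0.2295 CPM. Clone 2 and clone 6 replicate 1 were the most alike pair, with a standard deviation of 0.368 between their log2 CPM over all genes tested, while the 2 wild-type libraries had 0.386 and those of clone 6 had 0.616. Clone 6 replicate 2 stood apart from its own replicate, and values are given with and without it. Comparisons that count clone 2 and clone 6 replicate 1 as separate libraries can give p-values that are too small, and those of clone 6 replicate 2 alone take their spread from the wild-type pair. Ribosomal and 7SL RNA took 12.39% and 7.711% of reads in the wild-type replicates, 6.19% in clone 2, and 15.03% and 7.339% in the clone 6 replicates. Of 9 astrocyte markers, AQP4 had 0 reads in every library and GFAP only 0.3123 to 0.6119 CPM. S100B, SLC1A2, ALDH1L1 and ALDOC reached at most 0.06442, 0.3846, 0.3297 and 0.7692 CPM. Only GJA1 (155.7 to 451 CPM), SLC1A3 (6.893 to 9.868 CPM) and SOX9 (4.497 to 8.296 CPM) were higher. Most of these markers were thus at or near 0, and the astroglial name of the line does not rest on them. Summed myeloid markers reached at most 2.492 CPM and lymphocyte markers 0.06442 CPM. Of 5 fibroblast markers, the collagen COL1A1 was at 1604 to 1892 CPM in 4 libraries and at 511 CPM in clone 6 replicate 2. The others were low, with COL1A2, DCN and LUM at most 0.5798, 0.06442 and 0.3059 CPM and PDGFRA at 0.9692 to 5.507 CPM. The part of COL1A1 in the results was not tested.

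Per kilobase of exon, wild-type cells held most IL6ST (53.69 and 45.19 CPM per kb), clear of the next gene in both libraries. LIF followed (21.64 and 29.87 CPM per kb), then SOCS3 (19.06 and 27.11), IL11 (26.64 and 18.97), IL6 (16.57 and 28.07), CSF3 (28.19 and 13.71) and OSMR (21.78 and 14.82), all on the same scale. Each of these overlapped its neighbour in the order. STAT3 was lower, at 14.14 and 12.76 CPM per kb, and CSF2 (7.975 and 3.84) and LIFR (4.158 and 3.32) were lowest and overlapped each other. All 10 genes were thus detected in both wild-type libraries.

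**Figure D1:**
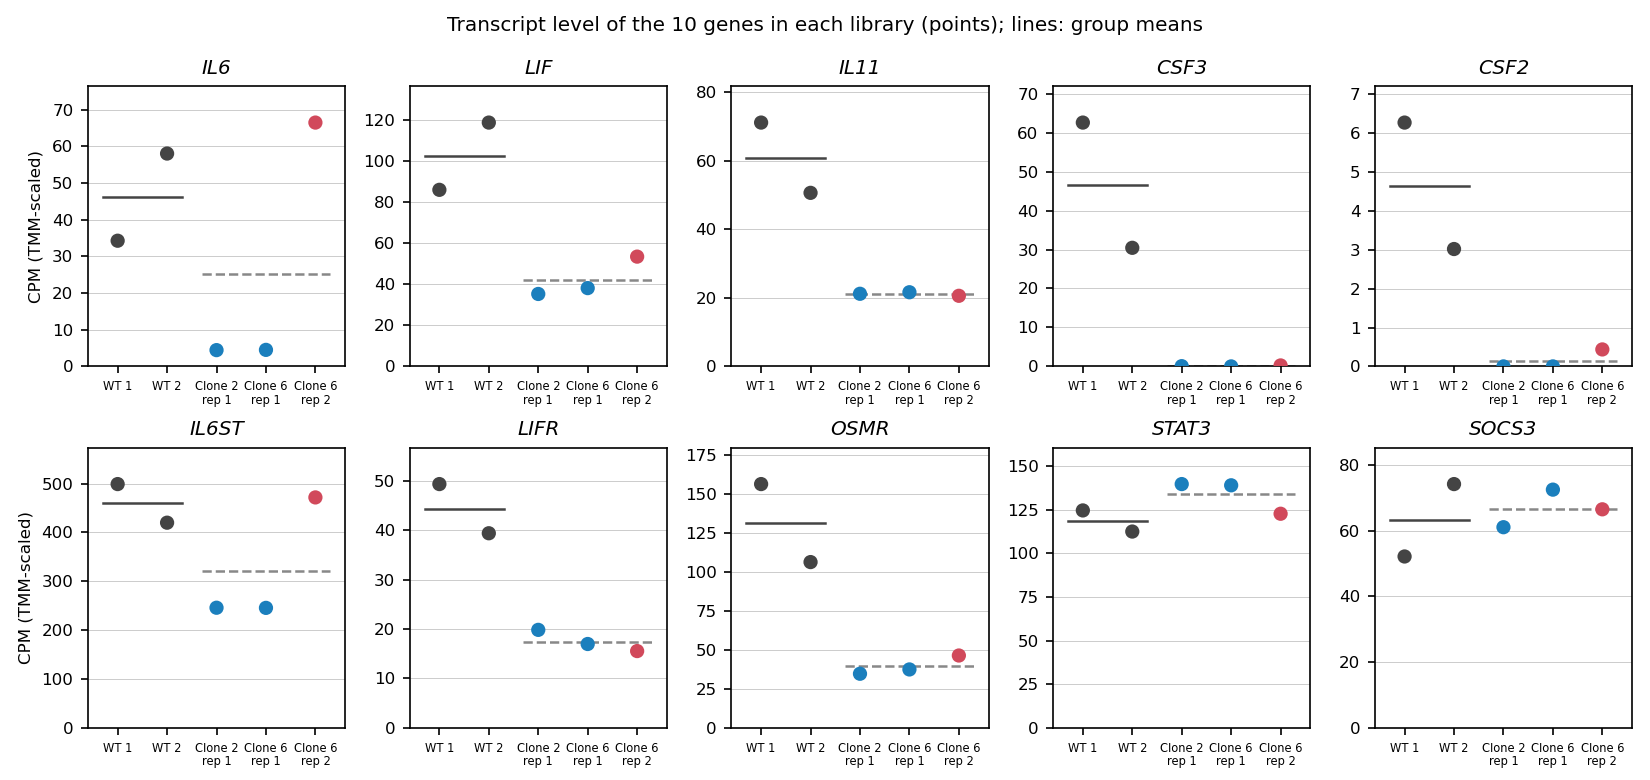
Level in CPM (vertical axes, linear from 0, 1 scale per gene) of each of the 10 genes in the 5 libraries. Grey points are wild type (WT), blue points clone 2 replicate 1 and clone 6 replicate 1, red points clone 6 replicate 2, and lines mark the means of the 2 wild-type and the 3 edited libraries. For IL6 and IL6ST the red point lies with wild type and for CSF3, IL11, LIFR and OSMR with the blue points.

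CSF3, the main growth factor of neutrophil precursors, was at 62.58 and 30.44 CPM in the wild-type libraries (1356 and 554 reads), at 0.06442 CPM in clone 2 (1 read), and at 0 and 0.2498 CPM in clone 6 replicates 1 and 2 (0 and 4 reads). The wild-type libraries differed from each other, but both lay far above every edited one. The ratio of wild type to all edited libraries was 427 (exact 95% counting interval 183 to 1320), with a fitted log2 fold change of -8.61 (SE 0.577, adjusted p = 0.000399 by edgeR). In clone 2 and clone 6 replicate 1, 1 read remained, a ratio of 1370 (246 to 54100), and in clone 6 replicate 2 the ratio was 192 (74.8 to 705). In bulk RNA, fewer cells that make a transcript and less of it per cell cannot be told apart.

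CSF2, which supports macrophages and granulocytes, was much less abundant, with 136 and 55 reads in wild type (6.277 and 3.022 CPM). Clone 2 and clone 6 replicate 1 had 0 reads, and clone 6 replicate 2 had 7 reads (0.4372 CPM). All edited values were below both wild-type values, by a ratio of 30.5 over the 3 edited libraries (14.5 to 77), and the fitted log2 fold change was -4.84 (SE 0.822, adjusted p = 0.0105 by edgeR). Against a floor of 3 reads per library, CSF2 was at least 22-fold lower in the libraries with 0 reads. The call was lost without wild-type replicate 1 (adjusted p = 0.114) and by DESeq2 (adjusted p = 0.118), and the log2 fold change was -9.34 without clone 6 replicate 2, a value that depends on the prior count because all remaining edited libraries were at 0.

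IL11, a gp130 ligand linked to stromal and fibrotic responses, was at 71.17 and 50.66 CPM in wild type and at 21.20, 21.65 and 20.61 CPM in clone 2, clone 6 replicate 1 and clone 6 replicate 2. The edited libraries differed from one another by less than the wild-type pair did, and the groups did not overlap. Its mean was 60.91 ± 14.5 CPM (SD, n = 2) in wild type and 21.15 ± 0.519 CPM (SD, n = 3) in edited cells, and the log2 fold change was -1.53 (SE 0.154, adjusted p = 0.00182 by edgeR).

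LIF, which signals through LIFR and gp130, was at 85.89 and 118.6 CPM in wild type. It was at 35.24 CPM in clone 2 and at 38.09 and 53.40 CPM in the clone 6 replicates, all below wild type. Clone 6 replicate 2 was 1.46 times the mean of the other edited libraries. The log2 fold change over the genotypes was -1.27 (SE 0.21, adjusted p = 0.00951 by edgeR), and the call was lost without wild-type replicate 2 (adjusted p = 0.0901, log2 fold change -1.03).

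IL6, the cytokine that names the family, was at 34.29 and 58.07 CPM in wild type, and had 4.445, 4.513 and 66.52 CPM in clone 2, clone 6 replicate 1 and clone 6 replicate 2. The groups overlapped, because the edited libraries held both the lowest and the highest value. Over the genotypes its log2 fold change was -0.87 (SE 1.07, adjusted p = 0.618 by edgeR). Clone 2 and clone 6 replicate 1 against wild type gave -3.37 (SE 0.25, adjusted p = 6.02e-06 by edgeR). Clone 6 replicate 2 against wild type gave 0.53 (SE 0.216, adjusted p = 0.0756), and its level was 14.9 times the mean of the other edited libraries. Genotype and clone 6 replicate 2 comparisons of IL6 were called when no filter on low counts was used. For the genotype the log2 fold change there was -0.869 (SE 0.152, adjusted p = 3.25e-07 by edgeR). Its SE was far below the 1.07 of the main fit, so that p-value does not measure the spread of IL6 among the edited libraries.

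**Figure D2:**
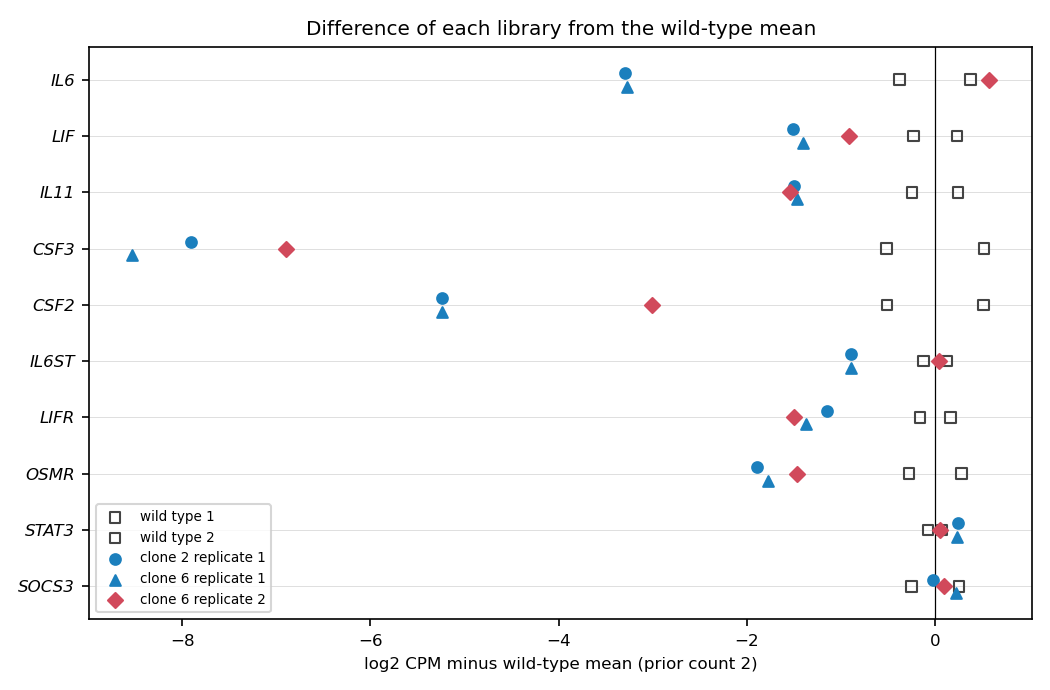
Log2 CPM of each library minus the mean of the wild-type libraries (horizontal axis, prior count 2) for the 10 genes. Open squares are the 2 wild-type libraries, blue circles and triangles clone 2 replicate 1 and clone 6 replicate 1, red diamonds clone 6 replicate 2, which for IL6 lies at 0.57 against -3.29 and -3.27 in the other edited libraries.

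Of the receptor chains, OSMR, the specific chain of the oncostatin M receptor, was at 156.3 and 106.3 CPM in wild type and at 34.72, 37.48 and 46.41 CPM in clone 2 and the clone 6 replicates. No edited value reached the lower wild-type value, and the log2 fold change was -1.73 (SE 0.191, adjusted p = 0.00243 by edgeR). LIFR, the chain that LIF binds, was at 49.34 and 39.39 CPM in wild type and at 19.84, 16.98 and 15.55 CPM in the edited libraries. It was thus lower in every edited library, with a log2 fold change of -1.35, an SE of 0.154 and an edgeR adjusted p = 0.00275.

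IL6ST, the gp130 chain used by all of these ligands but the colony-stimulating factors, was at 498.9 and 419.9 CPM in wild type, at 245.9 and 245.6 CPM in clone 2 and clone 6 replicate 1 and at 471.6 CPM in clone 6 replicate 2. That library lay between the wild-type values, and the other edited libraries lay well below them. The genotype comparison gave a log2 value of -0.52 (SE 0.291, adjusted p = 0.27 by edgeR). Among the alternatives run, it was called with no filter on low counts (adjusted p = 7.69e-05) and without clone 6 replicate 2. With no filter the log2 value was alike (-0.534) but the SE only 0.116, below what the spread of the edited libraries gave in the main fit. Clone 2 and clone 6 replicate 1 against wild type gave -0.92 (SE 0.0812, adjusted p = 2.06e-05) and clone 6 replicate 2 against wild type 0.04 (SE 0.121, adjusted p = 0.824). OSMR and LIFR, by contrast with IL6ST, were below wild type in clone 6 replicate 2 too, with log2 fold changes of -1.50 (SE 0.191) and -1.51 (SE 0.172) there (edgeR adjusted p = 8.72e-05 and 3.45e-05).

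STAT3, the main transcription factor of the pathway, was at 124.6 and 112.5 CPM in wild type and at 139.7, 139.0 and 122.7 CPM in clone 2 and the clone 6 replicates. The groups overlapped, and the log2 fold change was 0.18 (SE 0.102, adjusted p = 0.288 by edgeR). In clone 2 and clone 6 replicate 1 it was 0.22 (SE 0.0684, adjusted p = 0.0295), a call lost by DESeq2 (adjusted p = 0.0835) and without clone 2 or clone 6 replicate 1 (adjusted p = 0.216 and 0.184). SOCS3, the inhibitor that STAT3 induces, was at 52.11 and 74.12 CPM in wild type and at 61.01, 72.43 and 66.45 CPM in the edited libraries, all within the wild-type range. Its log2 fold change was 0.08 (SE 0.162, adjusted p = 0.775 by edgeR). Transcript levels do not show how much STAT3 was phosphorylated.

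The share of all genes called sets the background for these counts. Between genotypes, 1563 of 16471 genes (9.49%) were called lower and 1259 (7.64%) higher, against 6 and 0 of the 10. In clone 2 and clone 6 replicate 1, 19.7% of 16183 genes were lower and 17.2% higher, against 8 and 1 of the 10. In clone 6 replicate 2, 16.6% of 16107 genes were lower and 17.4% higher, against 6 and 0. All 3 edited libraries lay below both wild-type libraries for LIF, IL11, CSF3, CSF2, LIFR and OSMR, and for 25.3% of all genes tested. The median log2 fold change of the 10 genes was -1.31 between genotypes, -1.51 in clone 2 and clone 6 replicate 1 and -1.22 in clone 6 replicate 2, against 0.02, 0.00 and -0.02 over all genes. The number called lower ranged from 5 to 8 between genotypes over the alternatives and single libraries left out.

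The labels allow 1 comparison among the edited lines, clone 6 (2 libraries) against clone 2 (1 library). It called 0% of 16471 genes by edgeR, with 114 genes at an unadjusted p under 0.05 and 2 genes called by DESeq2. IL6 had a log2 fold change of 3.01 there (SE 1.43, unadjusted p = 0.076), and its clone 6 replicates were at 4.513 and 66.52 CPM. Clone 6 replicate 2 held 1.92 times the IL6ST, 1.29 times the OSMR, 0.962 times the IL11, 0.845 times the LIFR, 0.881 times the STAT3 and 0.996 times the SOCS3 of the other edited libraries' mean. These ratios have no test, because the split of the edited libraries was known from their counts and not from the labels.

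**Figure D3:**
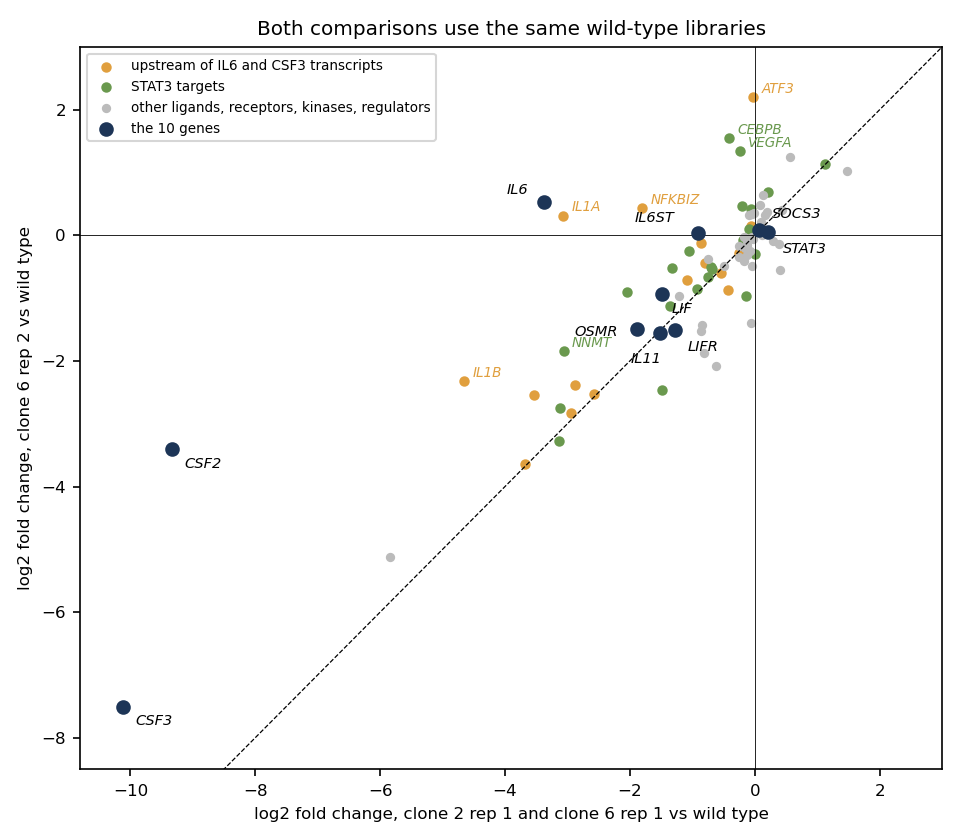
Fitted log2 fold change against wild type in clone 2 replicate 1 and clone 6 replicate 1 (horizontal axis) and in clone 6 replicate 2 (vertical axis), for the 10 genes (dark blue), genes upstream of IL6 and CSF3 (orange), STAT3 targets (green) and the other pathway genes (grey). Both axes share the wild-type libraries, the dashed line marks equal values, and IL6 (-3.37 and 0.53) lies far above it (the CSF2 value of -9.34 comes from 0 reads and depends on the prior count).

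The other ligands of the family were few. Of 11 listed, 6 passed the filter on low counts. Between genotypes and in clone 2 and clone 6 replicate 1, 0 of these 6 were called. Of all genes, 9.49 and 19.7% were lower and 7.64 and 17.2% higher in these comparisons, so few calls among 6 genes say little. OSM, the ligand of OSMR, had at most 0.2295 CPM, and IL27, IL31 and IL3 had 0 reads in every library. Of 10 other receptor chains, 6 passed the filter, and 1 rose and 0 fell between genotypes, beside the same shares of all genes. The receptors of the colony-stimulating factors, CSF3R, CSF2RA and CSF2RB, had at most 0.0923 CPM in any library, below the level of 3 reads. IL6R, the chain that binds IL6, was the 1 receptor gene that rose, from 4.246 and 3.791 CPM in wild type to 10.76, 12.01 and 8.182 CPM in clone 2 and the clone 6 replicates, with no overlap. Its log2 fold change was 1.35 (SE 0.213, adjusted p = 0.00822 by edgeR), and the call was lost without wild-type replicate 1 or 2 (adjusted p = 0.0821 and 0.0877). IL11RA, the IL11-binding chain, was at 6.184 and 4.45 CPM in wild type and at 2.77, 4.36 and 1.249 CPM in clone 2 and the clone 6 replicates. All edited values were below wild type, as for 25.3% of all genes tested. It was called in clone 6 replicate 2 (log2 fold change -2.09, edgeR adjusted p = 0.000952). It was not called in the other edited libraries (-0.61, adjusted p = 0.0851) or between genotypes (-0.95, adjusted p = 0.19), except with a replicate block (adjusted p = 0.0309) or no filter on low counts (adjusted p = 0.00218). With no filter the genotype SE fell from 0.443 to 0.26 at a like log2 fold change (-0.978).

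Of 12 kinases, adaptors and other STATs, 3 fell and 1 rose between genotypes (median log2 fold change -0.08). Over all genes, 9.49% fell and 7.64% rose there. In clone 2 and clone 6 replicate 1, 4 fell and 2 rose, beside 19.7% and 17.2% of all genes. In clone 6 replicate 2 their median log2 fold change was -0.15, against -0.02 over all genes. STAT5A, which the receptors of CSF2 and related cytokines activate, had 66 and 31 reads in wild type and 1, 0 and 1 reads in clone 2 and the clone 6 replicates, a ratio of 54.3 (exact 95% counting interval 14.6 to 454, adjusted p = 0.00273 by edgeR). STAT5B had a log2 fold change of -0.61 and the adaptor SHC1 one of -0.49 (edgeR adjusted p = 0.0294 and 0.00922). Both lost their calls without either wild-type replicate (STAT5B adjusted p = 0.15 and 0.194, SHC1 adjusted p = 0.0902 and 0.0874), and STAT5B also without clone 2 or clone 6 replicate 1 (0.0916 and 0.0949). JAK1, JAK2 and TYK2, the kinases of gp130, were not called between genotypes. Named after their values were seen, STAT6 also fell and GAB1 rose in clone 2 and clone 6 replicate 1, and JAK1 and STAT2 rose in clone 6 replicate 2.

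Among 12 tested negative regulators, 1 fell and 1 rose between genotypes (9.49% and 7.64% of all genes), with a median log2 fold change of -0.06. In clone 2 and clone 6 replicate 1 also 1 fell and 1 rose, and in clone 6 replicate 2 there were 4 that fell (SOCS1, SOCS2, SOCS5 and PIAS3) and 1 that rose (PTPN1), beside 16.6% and 17.4% of all genes. The shares of all genes in clone 2 and clone 6 replicate 1 were 19.7% lower and 17.2% higher. SOCS2, which restrains growth hormone and STAT5 signalling, was at 4.938 and 8.076 CPM in wild type and at 2.964, 2.6 and 3.31 CPM in edited cells. PTPN1, a phosphatase of JAK kinases, was at 112.6 and 116.6 CPM in wild type and at 160.5, 151.7 and 152.1 CPM in edited cells. Neither gene overlapped between genotypes (log2 fold change -1.13 and 0.43, edgeR adjusted p = 0.0291 and 0.017). Both calls were lost on leaving out wild-type replicate 1 (adjusted p = 0.0512 and 0.159), wild-type replicate 2 (0.199 and 0.112), clone 2 (0.0875 and 0.0776) or clone 6 replicate 1 (0.0905 and 0.0596).

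Of 22 tested STAT3 targets, 9 fell and 1 rose between genotypes, 13 fell and 1 rose in clone 2 and clone 6 replicate 1, and 10 fell and 5 rose in clone 6 replicate 2. Over all genes tested, 9.49% fell and 7.64% rose, 19.7% fell and 17.2% rose, and 16.6% fell and 17.4% rose in the same comparisons, so the share of targets that rose in clone 6 replicate 2 was near that of all genes. Their median log2 fold changes were -0.62, -0.69 and -0.51 in that order. NNMT, a nicotinamide methyltransferase, was at 93.41 and 81.15 CPM in wild type and at 10.37, 10.78 and 24.3 CPM in clone 2 and the clone 6 replicates, with a log2 fold change at -2.52 (SE 0.353, adjusted p = 0.00549 by edgeR, 0.0668 without wild-type replicate 1). The AP-1 gene JUNB was at 24 and 32.91 CPM in wild type and at 9.921, 12.62 and 13.05 CPM in edited cells (log2 fold change -1.26, adjusted p = 0.00665, 0.0672 without wild-type replicate 2). SAA1, an acute-phase protein, and BCL3, a partner of NF-kB, were low in all libraries (at most 2.723 and 9.877 CPM). Their log2 fold changes were -2.96 and -1.73 (edgeR adjusted p = 0.00627 and 0.0321). SAA1 was not called when wild-type replicate 1 was left out (adjusted p = 0.0784), nor BCL3 without wild-type replicate 1 (0.265), wild-type replicate 2 (0.0738) or clone 2 (0.0963). The 1 target that rose, BCL2L1, encodes the survival protein BCL-XL and went from 48.83 and 52.19 CPM to 111.1, 110.9 and 110.4 CPM (log2 fold change 1.13, SE 0.0876, edgeR adjusted p = 0.000683). It was named after its values were seen.

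CEBPB, a factor that binds C/EBP motifs and is itself on the STAT3 target list, was at 63.27 and 56.04 CPM in wild type, at 39.36 and 51.09 CPM in clone 2 and clone 6 replicate 1 and at 173.9 CPM in clone 6 replicate 2. Against wild type its log2 fold change was 1.55 (SE 0.113, adjusted p = 9.87e-07 by edgeR) in that library and -0.42 (adjusted p = 0.0192) in the other edited libraries. VEGFA, the vascular growth factor, was at 65.7 CPM in clone 6 replicate 2 and at 20.94 to 28.24 CPM in the other 4 libraries (log2 fold change 1.34 for clone 6 replicate 2 against wild type, adjusted p = 1.52e-05 by edgeR). The other 3 targets that rose in that library were BCL2L1, BCL6 and HIF1A. CEBPB, VEGFA, BCL6 and HIF1A were singled out after their values were seen. The link of CEBPB to IL6 was not tested.

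Of 18 tested genes upstream of IL6 and CSF3 transcripts, 8 fell and 0 rose between genotypes, 13 fell and 0 rose in clone 2 and clone 6 replicate 1, and 9 fell and 2 rose in clone 6 replicate 2. Median log2 fold changes were -0.65, -0.97 and -0.52. The same shares of all genes, 9.49, 19.7 and 16.6% lower and 7.64, 17.2 and 17.4% higher, are the background here. IL1R1, the signalling receptor of interleukin-1, was at 28.11 and 20.6 CPM in wild type and at 2.126, 1.683 and 1.936 CPM in the 3 edited libraries. It was low in all edited libraries alike, and its log2 fold change was -3.66 (SE 0.2, adjusted p = 0.000269 by edgeR). IL1B, a ligand of IL1R1, was at 461.1 and 393.7 CPM in wild type, at 18.49 and 15.76 CPM in clone 2 and clone 6 replicate 1 and at 85.69 CPM in clone 6 replicate 2. Its log2 fold change was -3.41 (SE 0.695, adjusted p = 0.0196), -4.65 without clone 6 replicate 2, and it was not called without wild-type replicate 1 or 2 (adjusted p = 0.129 and 0.0996).

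TNFAIP3, an NF-kB target that ends NF-kB signalling, was at 71.77 and 52.69 CPM in wild type and at 5.863, 4.895 and 10.68 CPM in edited cells (log2 fold change -3.11, adjusted p = 0.00184 by edgeR). TNFRSF1B, a receptor of tumour necrosis factor, had a log2 fold change of -2.88 (adjusted p = 0.00544, 0.0747 without wild-type replicate 1). NFKBIA, the NF-kB inhibitor that NF-kB induces, was at 184.7 and 168 CPM in wild type and at 23.77, 24.48 and 33.91 CPM in edited cells (log2 fold change -2.69, adjusted p = 0.000328). ZC3H12A, an RNase that degrades IL6 transcripts, fell as well (log2 fold change -2.55, adjusted p = 0.000302). In clone 6 replicate 2 IL6 was at 66.52 CPM, and IL1R1, NFKBIA and ZC3H12A were at 1.936, 33.91 and 4.122 CPM. NFKBIZ, a nuclear NF-kB cofactor that acts at the IL6 promoter, differed from these, at 71.07 and 79.39 CPM in wild type, 22.16 and 21.34 CPM in clone 2 and clone 6 replicate 1 but 101.7 CPM in the other clone 6 library. NFKBIZ and the stress-induced factor ATF3 were the 2 genes of the list that rose in clone 6 replicate 2 (log2 fold change 0.44 and 2.21, edgeR adjusted p = 0.0113 and 0.00334). ATF3 was at 3.923 and 18.79 CPM in wild type, at 12.37 and 9.561 CPM in clone 2 and clone 6 replicate 1 and at 51.4 CPM in clone 6 replicate 2, so its fold depends on which wild-type library it is set against. NFKBIA, ZC3H12A, NFKBIZ and ATF3 were named after their values were seen.

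**Figure D4:**
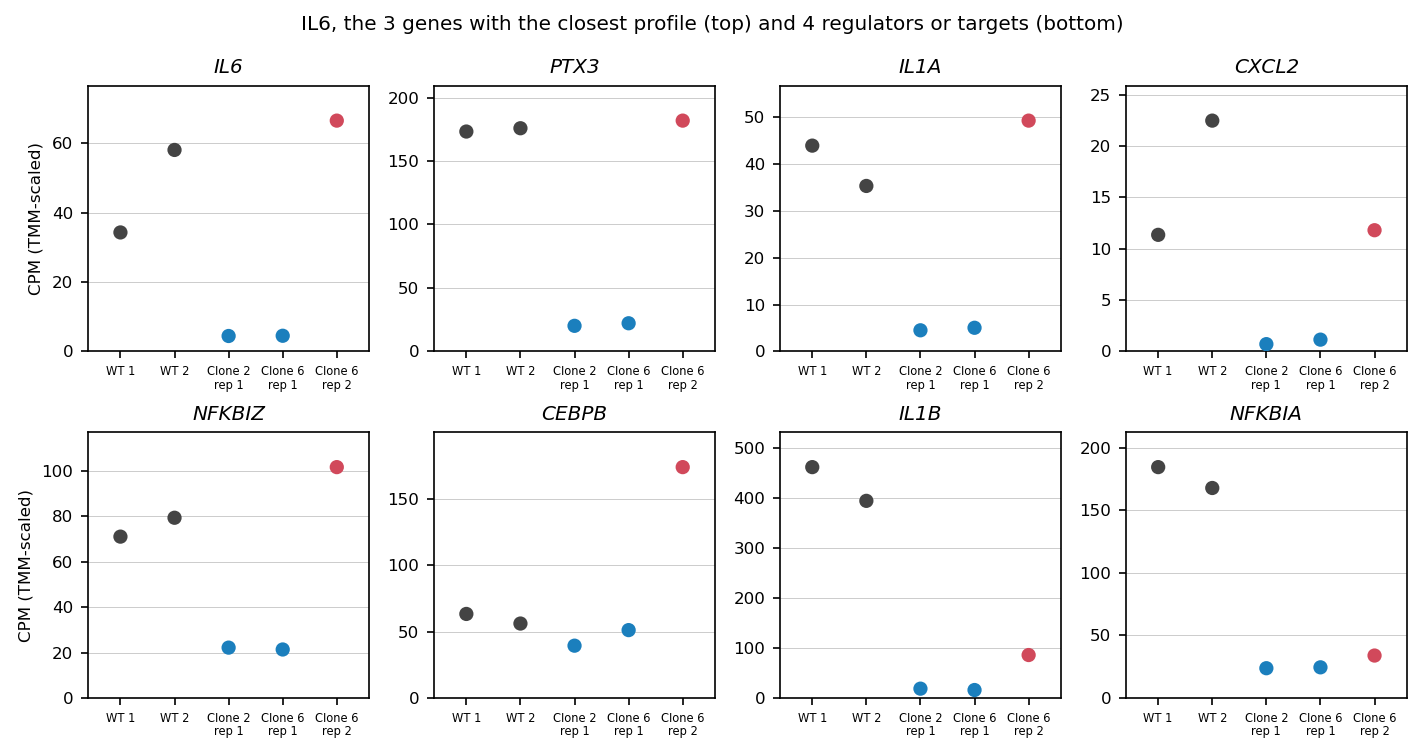
Level in CPM (vertical axes, linear from 0) in the 5 libraries of IL6, PTX3, IL1A and CXCL2 (top) and of NFKBIZ, CEBPB, IL1B and NFKBIA (bottom). Grey is wild type, blue clone 2 replicate 1 and clone 6 replicate 1, red clone 6 replicate 2, where IL6 is at 66.52 CPM and NFKBIA at 33.91 CPM.

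Likeness to a gene was measured as the root mean squared difference in log2 CPM, minus the wild-type mean, over 5 libraries. The closest genes were sought among 11214 genes. Closest to IL6 were PTX3, a secreted pattern-recognition protein (0.364), IL1A, the other interleukin-1 ligand (0.398), and CXCL2, a neutrophil chemokine (0.66). PTX3 was at 173.2 and 175.8 CPM in wild type, 20.16 and 22.18 CPM in clone 2 and clone 6 replicate 1 and 181.8 CPM in clone 6 replicate 2. IL1A was at 43.94 and 35.33, 4.51 and 5.048, and 49.28 CPM in the same order. CXCL2 was at 11.35 and 22.47, 0.7087 and 1.147, and 11.8 CPM. In clone 6 replicate 2, PTX3 and IL1A were above both wild-type values, as IL6 was, and CXCL2 lay between them. Closest to LIF were SEMA3E (0.135), AOX1 (0.136) and JUNB (0.141). Closest to CSF3 were TNC (0.568), EPB41L3 (0.633) and CHRDL1 (0.672), of which TNC was at 212.9 and 223.9 CPM in wild type and at most 0.8744 CPM in edited cells. Closest to SOCS3 were GEMIN7 (0.063), HNRNPAB (0.0727) and E4F1 (0.0838), whose levels varied little.

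Of 60 genes nearest to the 10 on the chromosome, 3 on each side, 19 were tested, and 2 fell and 1 rose between genotypes, near the 9.49% and 7.64% of all genes. Those that fell were RICTOR, which overlaps OSMR on the opposite strand (log2 fold change -0.74, adjusted p = 0.0124 by edgeR, 0.133 and 0.061 without wild-type replicate 1 and 2), and STAT5A beside STAT3. TOMM7, near IL6, rose (log2 fold change 0.49, adjusted p = 0.0111) and was not called without wild-type replicate 1 or 2 or clone 2 (adjusted p = 0.125, 0.0883 and 0.0538). PSMD3 and MED24 beside CSF3 had log2 fold changes of 0.07 and -0.01 (adjusted p = 0.622 and 0.978). Genes on the opposite strand also overlap IL6, LIF, IL6ST and LIFR. No source used here gives the strand setting of the counts, so reads of these genes and of OSMR cannot be told apart with certainty from those of their partners. No gene overlaps IL11, CSF3, CSF2, STAT3 or SOCS3 in the annotation used.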

How the data were processed

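The authors deposited whole-number counts of reads per gene, 1 file per library, not normalized. The submitters' processing notes name Trimmomatic, STAR, HTSeq and hg19 (GRCh37), with no versions. No source used here gives the annotation release or the strand setting. Each file listed 63677 genes, of which 5772 were empty and were left out. Samples were grouped by genotype and clone as labelled.

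Counts were fitted in R 4.3.3 with edgeR 4.0.16 (TMM, filterByExpr by label group, quasi-likelihood F test, Benjamini-Hochberg over all genes tested, threshold 0.05). Residual degrees of freedom were 3 for the genotype, 2 without clone 6 replicate 2, 1 for clone 6 replicate 2 alone against wild type and 2 for clone 6 against clone 2. Where a fit left 1 library in an arm, that library was assumed to vary like the others. Alternatives were other scalings and filters, DESeq2 1.42.0, a replicate block, a ribosomal RNA covariate, and leaving out or summing libraries.

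Exon lengths and neighbouring genes came from GENCODE 29 (GRCh38), joined by identifier, and promoters from RefSeq (GRCh38.p14). Named genes were the 10 genes, up to 4 genes called between genotypes per list by size of log2 fold change, called neighbours, and the 3 closest profiles (average log2 CPM of at least 2) to IL6, LIF, CSF3 and SOCS3. Some genes that meet this rule are left out of the text. Members and lists were chosen with earlier results of these data known. Intervals and floors (3 reads) cover counting error only.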

Additional observations from a re-analysis of the deposited data

How the results depend on the processing

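The 2822 genes called between genotypes became 4274 with no filter on low counts, 1834 with ribosomal RNA share as a covariate, 1528 with clone 2 and clone 6 replicate 1 summed, and 500 (without wild-type replicate 1) to 5971 (without clone 6 replicate 2) on leaving out 1 library. With replicate number as a block (replicate block) it was 4499. Same-numbered libraries correlated at 0.172 in their deviations over 16471 genes, but with 2 pairs the labels' numbers were not taken to pair samples. The 5971 genes called in clone 2 and clone 6 replicate 1 ranged from 3307 to 7446 on leaving out 1 library, the 5470 in clone 6 replicate 2 were 2710 by DESeq2, and the 0 in clone 6 against clone 2 were 2 by DESeq2.

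Of 150 alternative values of the 10 genes between genotypes, 141 kept direction and side of the threshold. The same held for 84 of 90 in clone 2 and clone 6 replicate 1 and for 58 of 60 in clone 6 replicate 2. SOCS3 changed sign on leaving out 1 library, from -0.157 (without wild-type replicate 1) to 0.353 between genotypes and from -0.171 (without wild-type replicate 1, edgeR adjusted p = 0.0272) to 0.334 in clone 2 and clone 6 replicate 1, where it was -0.056 without clone 6 replicate 1. IL6ST in clone 6 replicate 2 was -0.004 with upper-quartile scaling. CEBPB between genotypes was 0.564 with all libraries and ranged from -0.418 (without clone 6 replicate 2) to 0.914 (without clone 2). The causes were not tested. Where a library had 0 reads of a gene, its depth allowed a level of up to 0.1385 to 0.2295 CPM (3 reads).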
